A study of Mus musculus with 6 samples.

Results

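Of the 55681 probes on the array, 16194 are identified by a chromosome region and a strand in mm9 coordinates rather than by a gene, and 3568 of these region probes were called well above background on 3 or more of the 6 arrays. These 3568 probes, from 2067 strand-specific regions, are described here. They were chosen by that detection call alone, so their detection is a description with no test. A further 19517 probes with other identifiers met the same rule. The RNA came from red pulp macrophages sorted from spleens of C57BL/6 mice aged 8 to 9 weeks, 3 wild-type and 3 Bach2 knockout animals, with 1 mouse per array. By label, the 5 male mice comprise all but wild-type replicate 3, a female. That mouse and knockout replicate 3 also carry a P6 tag whose meaning the labels do not give. The labels do not say whether the knockout is germline or limited to some cells, nor which surface markers set the sort.

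Intergenic noncoding RNAs are transcribed from stretches between protein-coding genes and include long spliced RNAs, transcripts of enhancers, antisense RNAs and unannotated extensions of neighbouring genes. Many are made at low levels and in few cell types, and the strand that is read decides which transcript a probe can bind. Red pulp macrophages clear aged red cells and recycle their iron, and Bach2 is a transcription factor, best known as a repressor, that shapes lymphocyte and macrophage programmes. The comparison asks which of these regions had a different RNA level without Bach2. The regions were not placed relative to genes here, so whether each lies between genes, or in an exon or intron, was not checked.

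Each value below is a level: the log2 of the probe's processed signal minus the 75th percentile of all noncontrol probes on the same array. A difference is the mean knockout level minus the mean wild-type level, with the standard error (SE) of limma's fit over all 23054 probes tested. Levels of different probes are not compared as amounts of RNA, because probes differ in how strongly they bind.

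Several arrays stood apart from the others. The array of wild-type replicate 2 had the lowest floor, with the median negative control at a level of -6.45, against -5.83 to -4.25 on the other 5 arrays. The array of knockout replicate 3 had the highest 75th percentile, a signal of 2664, and that of wild-type replicate 3 the lowest, 764. Slide positions were read from the names of the scanner files, since the labels do not give them. By those names, all 3 wild-type arrays lay in row 1 of the slide and all 3 knockout arrays in row 2. Row and genotype cannot be told apart. All 12 red pulp macrophage markers were detected. Their mean level was 7.11, 7.61 and 8.05 in wild type and 7.08, 7.31 and 6.83 in knockout, and all 12 had a lower knockout mean, with a median difference of -0.51 and 0 called by limma. The mean of 11 natural killer and T cell markers was 0.38 to 1.0 in wild type and 1.51 to 2.60 in knockout, that of 7 neutrophil markers 1.37 to 2.75 and 2.29 to 4.19, and that of 6 dividing-cell markers 0.67 to 4.06 and 1.83 to 4.14. That of 6 B cell markers was 0.06 to 1.89 and 0.86 to 1.31, and that of 6 erythroid markers 3.37 to 6.52 and 3.80 to 6.41. The part of these markers in the results below was not tested, and in sorted cells measured in bulk, fewer cells of a type and less RNA per cell cannot be told apart. Of 2 Bach2 probes, the probe A_66_P114768 read -0.90, 0.02 and -1.35 in wild type and -2.24, -3.72 and -1.15 in knockout, so the genotypes overlapped there. The Y-linked Eif2s3y was detected in each of the 5 males but not in the female, while 2 Xist probes were above background on no array, the female's included, where they read -3.25 and -2.78.

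The region probes were designed against 4610 strand-specific identifiers, or 3543 intervals, of which 1067 were probed on both strands. The intervals behind them were long, with a median of 10676 bp over the identifiers. Forward and reverse probes were detected at nearly the same share, with 21.4% of 8171 forward probes and 22.7% of 8010 reverse probes among the members. Length made little difference to this share, which ran from 19.5% for regions of up to 2341 bp to 23.4% for regions of 9501 to 18151 bp. Of 3920 identifiers with at least 2 probes, all probes were members in 262, some but not all in 1597, and none in 2061. Of the 1067 intervals probed on both strands, 813 had a member on at least 1 strand and 356, or 43.8% of those 813, on both.

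Region probes were detected less often than the remaining probes on every array. The share well above background was 23.9%, 34.3% and 17.4% on the 3 wild-type arrays and 18.8%, 19.3% and 25.1% on the 3 knockout arrays, against 44.0% to 57.3% of the other probes. The highest share was that of wild-type replicate 2, which had the lowest floor, and the lowest was that of wild-type replicate 3. The genotypes overlapped, with a wild-type mean of 25.2% ± 8.51 and a knockout mean of 21.1% ± 3.53 (SD, n = 3). Without wild-type replicate 2 the knockout mean was the higher by 0.37 percentage points.

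Detection was mostly all or nothing. Of the region probes, 9158 (56.6%) were not well above background on any array and 1874 (11.6%) were on all 6, against 36.1% and 39.2% of the other probes. The array of wild-type replicate 2 alone accounted for 1187 region probes that passed on no other array, against 188 to 360 for each of the other 5. Probes just inside the rule, detected on 3 arrays, had a median mean level of -2.71 (657 probes), and those just outside, detected on 2, had -3.32 (1081 probes).

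The 3564 members with a value on every array sat low in the signal range. Their median mean level was -1.25, and 27.5% lay above 0, which is the 75th percentile of each array. Of the 19490 other tested probes, 64.5% lay above 0, around a median of 1.18. This is a description of signal and does not order the RNAs. The residual SD between mice of a genotype had a median of 0.86 among members and 0.64 among the other probes. At like signal the gap was small where levels were low. Between levels of -3 and -2 (947 members) the SD was 1.008 against 0.998. Between -2 and -1 (874 members) it was 0.91 against 0.88. The members' SD was more clearly the larger at higher levels: between 0 and 2 it was 0.74 against 0.64, and above 4 it was 0.67 against 0.52.

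The brightest region probes gave nearly the same signal on every array before scaling, but not the same level. The 10 with the highest mean level had unscaled signals of 172115 to 522884, and each varied by only 1.29-fold to 2.39-fold over the 6 arrays. In level, A_30_P01019512 ran from 9.12 in wild-type replicate 3 to 6.81 in knockout replicate 3. Among them were 3 probes of the reverse strand of chr17:17481706-17482457, such as A_30_P01022075, which read 8.42, 8.38 and 8.35 in wild type and 8.55, 8.66 and 7.26 in knockout. A_30_P01026458, on the reverse strand of chr11:22681800-22707775, read 8.06, 8.29 and 8.83, then 8.25, 8.49 and 7.06. In both, knockout replicate 3 was the low array. The other knockout mice lay above all wild-type mice for the first probe and among them for the second. All 10 probes were lowest on that array, which had the highest 75th percentile, and their differences of -0.64 to -0.23 had SEs of 0.47 to 0.61.

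No region probe passed the test between the genotypes. With limma and Benjamini-Hochberg adjustment over 23054 probes, 0 region probes were higher and 0 lower in knockout at an adjusted p under 0.05, as were 0% of all probes in each direction. Before adjustment, 28 members were higher and 30 lower at a p under 0.05, together 1.63%, beside 1.33% of all tested probes. Values of all 3 knockout mice lay outside those of all 3 wild-type mice for 105 members (2.95%), beside 3.09% of all tested probes. Both shares were near those of the array as a whole.

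The members were spread more widely than the rest but around a similar centre. Their median difference was -0.13, beside -0.11 for all tested probes, and 60.3% were lower in knockout, beside 61.1%. A difference of at least 1 on the log2 scale in either direction was seen for 607 members (17.0%) and for 6.67% of the other probes. The centre depends on the scaling: with each array centred on its median, the median over all tested probes moved to 0.02, the members' median was 0.00 and 49.8% of them were lower. The members without overlap were 36 higher and 69 lower with the 75th percentile (1.20% and 1.89% of all tested probes), but 83 higher and 35 lower with median centring. With median centring they made up 3.31% of members, beside 2.39% of all tested probes. No direction is therefore given for the members as a whole.

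The largest group of high differences was a locus on chromosome 10, where 8 forward-strand probes from overlapping regions read higher in all 3 knockout mice than in all 3 wild-type mice. The region chr10:83181374-83249774 had 5 forward probes, all members, with differences of 3.02 to 3.79. The region chr10:83185606-83225506, which lies within it, had 3 forward probes, all members, with differences of 3.57 to 4.40. The 8 probes may report the same transcript and are not independent. No probe of the locus passed the test (limma adjusted p = 1.0 for each of the 8), and the smallest unadjusted p among them was 0.000578.

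Median levels over the 8 probes were -2.44, -3.53 and -4.10 in the wild-type mice and -0.02, 1.26 and -0.36 in the knockout mice. All 8 were well above background on every knockout array, while 4, 4 and 0 were so on the wild-type arrays. Knockout replicate 2 was the highest mouse and wild-type replicate 3 the lowest, with no overlap for any of the 8. The 3 probes of the shorter region and A_30_P01017743 met the detection rule through the knockout arrays alone. They had to differ in that call, so their detection counts are no separate support. The 4 probes detected on wild-type arrays were each well above background in 2 wild-type mice, and they too had no overlap. Leaving out each mouse in turn kept the median difference over the 8 probes between 3.14 and 4.08, and it was 3.47 without both P6-tagged mice.

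A_30_P01017680 of the longer region was well above background on 5 arrays and read -0.71, -1.39 and -2.64 in wild type, then 1.40, 2.02 and 0.91 in knockout. The lowest knockout mouse was above the highest wild-type mouse. The means were -1.58 ± 0.98 and 1.44 ± 0.56 (SD, n = 3), a difference of 3.02 ± 0.61 (SE) or 8.13-fold. A_30_P01033518 of the same region read -0.70, -1.21 and -3.66, then 1.58, 2.33 and 1.29, a difference of 3.59 ± 0.78 (SE). Again the groups did not overlap, and wild-type replicate 3 was the lowest.

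The 3 probes of the shorter region, and A_30_P01017743 of the longer, did not reach that call in any wild-type mouse, so only a bound on the fold is given. A bound sets the mean knockout level against a wild-type mean in which any value under the lowest level called well above background on its array is raised to that level. A_30_P01033328 read -2.77, -6.30 and -4.09 in wild type and -0.49, 1.26 and -0.73 in knockout, and was at least 8.66-fold higher in knockout. The wild-type values differed widely, with replicate 2 at the floor of its array. A_30_P01025586 was at least 6.11-fold higher, A_30_P01032460 at least 5.11-fold and A_30_P01017743 at least 4.51-fold, with mean levels of -4.08 and -0.51, -4.94 and -0.77, and -4.74 and -0.95 in wild type and knockout.

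The rest of the locus did not show differences of this size. The interval chr10:83181374-83249918 differs from the longer region only in its end, yet 4 of its 5 forward probes were not members. The remaining probe, A_30_P01026434, read -0.41, -1.42 and 0.15 in wild type and 0.78, -0.82 and -0.45 in knockout, so the groups overlapped, with a difference of 0.39 ± 0.61 (SE). The 5 reverse-strand members of the 2 longer intervals had differences of 0.02 to 0.93 and overlapped between the genotypes. Whether the high signal is limited to the forward strand was not tested as a difference between strands.

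The smallest p of all 23054 probes belonged to a region probe on chromosome 14. A_30_P01028869, on the forward strand of chr14:99728359-99728958, read -3.40, -4.27 and -4.49 in wild type and -0.25, 0.04 and 0.19 in knockout. The 3 knockout mice lay close together and far above the wild-type mice, of which 1 was well above background. The means were -4.05 ± 0.57 and 0.00 ± 0.22 (SD, n = 3), a difference of 4.05 ± 0.48 (SE; limma adjusted p = 0.344). No fold is given, since 2 of the 3 wild-type values were under the call. The 2 further probes of the region were not members: A_30_P01025600 read -3.66, -3.52 and -2.53, then -3.43, -3.48 and -4.34, and A_30_P01031386 was near the floor on all arrays. The high knockout level thus rests on 1 probe of 3.

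Other regions high in knockout had fewer agreeing probes. On the reverse strand of chr14:78924115-78938125, 3 of 6 probes were members, with differences of 1.45 to 3.20. A_30_P01029833 read -4.83, -6.43 and -3.96, then -1.41, -1.0 and -3.22, at least 2.37-fold higher in knockout, and A_30_P01020152 was at least 2.47-fold higher. Neither was well above background on a wild-type array, and the groups did not overlap. On the reverse strand of chr13:108548345-108679004, A_30_P01023333 read -3.02, -6.68 and -3.38, then 0.83, -1.40 and -2.10, at least 4.70-fold higher. Its wild-type and knockout mice did not overlap, and its difference of 3.47 was 2.31 without wild-type replicate 2. The other 3 member probes of that region had differences of -0.68 to -0.19.

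Among probes lower in knockout, the smallest p was that of A_30_P01018840, on the reverse strand of the 140 bp region chr13:94069868-94070007. It read -2.05, -1.11 and -1.51 in wild type and -4.52, -4.47 and -4.10 in knockout, where no array called it above background. The knockout mice lay close together below all wild-type mice. The difference was -2.80 ± 0.46 (SE; limma adjusted p = 0.882), and the probe was at least 2.38-fold lower. The second probe of the region, A_30_P01021300, read -0.74, -0.42 and -3.51, then -2.16, -1.91 and -2.46, with overlap and a difference of -0.62 ± 0.80 (SE).

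Some lower differences did extend over several probes of a region. On the reverse strand of chr6:35201798-35217831, 5 of 7 probes were members and all 5 were lower, by -2.15 to -0.52, with 3 free of overlap. A_30_P01025290 read -1.90, -1.48 and 0.94, then -2.79, -2.22 and -3.77, at least 3.90-fold lower in knockout. Wild-type replicate 3 was its highest mouse and knockout replicate 3 its lowest. The median difference over the 5 probes, -1.98, was -1.07 without the former and -1.26 without the latter. The 2 forward members of that interval read lower by only -0.17 and -0.03. On the reverse strand of chrX:98658045-98677545, 3 of 4 probes were members and lower by -1.99 to -1.16, and A_30_P01029987 read -0.56, 0.10 and -0.02, then -2.35, -0.59 and -3.51. Its knockout values were spread widely, replicate 2 came close to the lowest wild-type mouse, and without knockout replicate 3 the difference of -1.99 was -1.31.

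Other low readings rested on 1 probe. A_30_P01029397, on the forward strand of chr11:6421951-6429173, read -2.34, -0.52 and -1.60, then -4.37, -3.12 and -3.01, a difference of -2.01 ± 0.62 (SE; limma adjusted p = 1.0). It had no overlap and was the only member of 9 forward probes. A_30_P01018968, on the reverse strand of chr7:106529142-106529752, read -1.51, 0.69 and -1.93, then -2.35, -4.64 and -3.17, while the other member of its region differed by 1.80 in the opposite direction. A_30_P01029927, on the forward strand of chr19:56820850-56837925, read -1.38, -1.26 and 1.69, then -2.53, -3.42 and -2.54, with wild-type replicate 3 far above the rest. Its difference of -2.51 was -1.51 without that mouse.

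The remaining 6 of the 12 probes of smallest p lower in knockout shared a pattern, with replicate 2 the highest knockout mouse in each. A_30_P01019324, on the reverse strand of chr7:126872550-126886125, read -0.43, -1.43 and 0.39, then -3.27, -0.91 and -3.41. A_30_P01026398, on the reverse strand of chr12:70213282-70225157, read -2.21, -1.81 and 0.33, then -3.94, -2.04 and -4.08. In both, knockout replicate 2 lay among the wild-type mice, and this was also so for A_30_P01022060, on the forward strand of chr15:73227424-73257474, and A_30_P01032389, on the forward strand of chr13:97697927-97698400. A_30_P01023608, on the forward strand of chr14:52864224-52878449, and A_30_P01031705, on the forward strand of chr2:174943325-174966675, had no overlap, with differences of -1.80 ± 0.62 and -1.44 ± 0.55 (SE), but knockout replicate 2 lay close to the lowest wild-type mouse.

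Few members were detected in 1 genotype only. There were 7 that were well above background on all 3 knockout arrays and no wild-type array, with bounds of 2.37-fold to 8.66-fold, and 27 with the reverse pattern, 26 of them with a bound, from 1.09-fold to 3.90-fold and at least 2-fold in 8. Since the detection rule passed such a probe through 1 genotype, it had to differ in that call, though its levels could overlap between the genotypes. Some bounds rest on 1 mouse. A_30_P01020965, on the reverse strand of chr16:94055900-94120575, read -2.38, -3.26 and 2.47, then -2.32, -2.26 and -3.68. Its bound of 3.24-fold comes from wild-type replicate 3. The share of such patterns over all probes was not computed, and these counts support no direction.

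Region probes stood out for signals in 1 mouse. Counting probes at least 2 log2 units above the other 5 arrays, a rule set after the values were seen, 180 members (5.05%) did so on the array of wild-type replicate 3, the female and P6-tagged mouse, against 0.58% of the other tested probes. The next array was that of knockout replicate 1, with 70 members (1.96%), and the remaining 4 had 0 to 20. The array of wild-type replicate 3 also had the lowest 75th percentile and the lowest share of region probes detected. This mouse is the only female, while it shares the P6 tag with knockout replicate 3, whose array had 4 such members (0.112%). The part of sex and of the tag was not tested.

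The 180 probes came from 117 identifiers on 20 chromosomes, with 102 of them on the forward strand. The X held 13 of the 180, a larger share than the 97 it held of all 3568 members. Of these 13, 5 came from chrX:33750475-33770425 and 3 from chrX:98979320-98997145. Probes of a region are not independent, so that share rests on few regions. The median level of the 180 was 2.70 in wild-type replicate 3 and lay between -2.49 and -1.32 in the other 5 mice. A_30_P01019455, on the forward strand of chr11:95573399-95587949, had the widest gap and read -1.94, -2.15 and 5.03 in wild type, then -1.35, -1.96 and -1.78 in knockout. The third wild-type mouse alone was high, and the other 5 lay close together.

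Neighbouring probes often shared this reading: 33 identifiers had at least 2 of the 180 probes. All 5 forward probes of chrX:33750475-33770425 were among them, with medians of -2.22, -2.46 and 3.91 in wild type and -3.12, -1.45 and -2.27 in knockout. All 3 forward probes of chr13:98528250-98551125 had medians of -1.20, -1.45 and 4.63, then -1.65, -0.91 and -0.86. On the reverse strand of chr17:24152225-24169870, all 6 member probes were among them. In each of these regions wild-type replicate 3 was the high mouse, and the genotypes otherwise interleaved.

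This mouse bears on the large negative differences. Of the 41 members at least 2 log2 units lower in knockout (0.338% of all tested probes were), wild-type replicate 3 was the highest mouse in 33, and 8 of the 41 were still at least 2 units lower without it. Over all members, 27 were then at least 2 units lower and 31 at least 2 units higher, against 41 and 23 with it. Over the 180 probes, the median difference was -1.71 with this mouse and -0.18 without it. Of the 23 members at least 2 units higher (0.438% of all tested probes), 8 were those of the chromosome 10 locus. Some of these 8 met the detection rule through the knockout arrays alone.

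Readings low in 1 mouse were fewer. Knockout replicate 2 was at least 2 log2 units below the other 5 arrays for 43 members (1.21%), against 0.693% of the other probes. Of these, 5 lay on the forward strand of chr4:129497990-129515290. All 10 forward probes of that region were members and lower in knockout, by -1.38 to -0.39, with medians of 0.28, 0.62 and -0.10 in wild type and 0.16, -2.58 and 0.53 in knockout. Only knockout replicate 2 was low, and the median difference over the 10 probes, -0.93, was 0.04 without it.

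Other densely covered regions showed how far probes of a region can go together. All 10 forward probes of chr17:26911397-26917047 were well above background on all 6 arrays, with medians of 1.12, 2.36 and 1.88 in wild type and 0.82, 1.70 and 2.31 in knockout. Replicate 1 was the lowest mouse of each genotype, the genotypes overlapped, and the 10 differences of -0.46 to 0.00 were smaller than their SE of 0.54 to 0.58. On the reverse strand of chr6:116092274-116144199, all 10 probes were members, but 5 were among the 180 of wild-type replicate 3 and the other 5 were not: A_30_P01026666 read -2.59, -2.03 and 3.12, then -2.41, -1.51 and -2.48, while A_30_P01018076 read 0.82, 1.42 and 0.81, then 1.13, 0.72 and 0.62. Probes of this region thus split into those high in that mouse and those level across all 6. On the forward strand of chr8:119732348-119749198, 8 of 10 probes were members, with differences of -0.36 to 0.49.

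Over all members, probes of an identifier agreed in sign in 491 of 832 identifiers with at least 2 tested members, and in 231 of 412 with at least 3. The median range of the differences within an identifier was 0.49 and 0.60. Of the 412, the lowest median difference, -2.0, was on the forward strand of chr14:55433382-55452757, where wild-type replicate 3 was high and the median was -0.43 without it, and the highest, 4.18, was at the chromosome 10 locus. After that locus and chr14:78924115-78938125, the next highest were the forward strand of chr10:95772764-95825001, with a median of 1.92, and the reverse strand of chr17:45524689-45525320, with 1.91, each from 3 members. Both rest in part on 1 mouse: the first median was 1.20 without knockout replicate 2, and the second was 0.23 without wild-type replicate 2, in which the 3 probes read -6.62, -6.54 and -5.04.

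The strands of an interval often differed in sign, with no test of the difference between them. How often unrelated probes share a sign was not computed, so the counts are a description only. Taking the brightest member of each strand, the sign of the difference was the same in 181 of 355 intervals, with 131 lower on both and 50 higher on both, and the median gap between the strands was 0.57. The interval chr5:35975265-35982561 had 4 member probes on each strand. Its forward probe A_30_P01024606 read 3.79, 4.95 and 2.57 in wild type and 3.31, 4.36 and 1.97 in knockout, while its reverse probe A_30_P01032382 read 3.39, 3.43 and 3.97, then 3.42, 4.02 and 3.70. The forward values spanned a wider range than the reverse values, with overlap of the genotypes on both.

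Columns 1 to 3 of the slide, as read from the scanner files' names, each held 1 mouse of each genotype. Column 3 held the P6-tagged mice, so that column and the tag cannot be told apart. For 22.7% of members, beside 13.6% of the other probes, the 2 arrays of column 1 were the highest of the 6. The order was the opposite for column 2, with 12.4% beside 19.4%, and for column 3, with 4.55% beside 8.60%. The members' median difference was -0.27 within column 1, 0.31 within column 2 and -0.35 within column 3. For the other probes it was -0.12, -0.22 and 0.08. The sign thus changed between columns in both sets, and in columns 2 and 3 the members were opposite in sign to the other probes.

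Named long noncoding RNAs with their own probes did not stand out either. From a list of 12 such genes, 7 had a probe that could be tested, and 0 of their 12 probes were called by limma (smallest unadjusted p = 0.147), with 9 lower, 3 higher and a median difference of -0.15. Malat1, an abundant nuclear RNA, read 3.83, 3.55 and 3.93 in wild type and 3.30, 2.92 and 4.36 in knockout, and differed by -0.24 ± 0.51 (SE). Neat1, the scaffold of paraspeckles, differed by -0.27 ± 0.55 (SE). Pvt1, the neighbour of Myc, read -1.76, 0.29 and -0.03, then -0.49, 1.68 and 0.86, on the probe A_55_P2051254, a difference of 1.18 ± 0.74 (SE). The genotypes overlapped for Malat1 and for this Pvt1 probe.

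The authors' deposited table of selected probes held 279 rows, 68 of them region probes. In the authors' deposited table, 56 of the 68 (82.4%) were lower and 12 higher in knockout. Of the 210 other probes of the authors' deposited table found in the scanner files, 155 (73.8%) were lower and 55 higher. No probe of either kind had overlapping genotypes there. Only 19 of the 68 in the authors' deposited table met the detection rule used here, 11 higher and 8 lower. The other 49 region probes of the authors' deposited table were 48 lower and 1 higher. Of the 68 in the authors' deposited table, 66 were well above background on the array of wild-type replicate 2, and 36 on that array alone, the array with the lowest floor. On each of the other 5 arrays 14 to 21 were. The 19 included 5 probes of the chromosome 10 locus, A_30_P01028869 and A_30_P01018840. They also included A_30_P01020553 on the forward strand of chr10:95772764-95825001, whose values in the authors' deposited table were -0.31, -0.71 and -0.83 in wild type and 0.31, 2.70 and 0.90 in knockout. Knockout replicate 2 was the highest mouse there, and the groups did not overlap.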

How the data were processed

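RNA of each mouse was amplified, labelled with 1 dye and hybridised to 1 Agilent array, per the labels' protocols. The deposited scanner files hold each spot's processed signal, an intensity, with background and outlier flags. They were made with Feature Extraction 10.7.3.1, per the file headers, while the submitters' processing notes name version 9.1. The authors deposited a second table of log2 values of 279 probes. These matched the scanner values, rescaled to the 75th percentile and centred on each probe's median, within 0.156.

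Control spots and outlier spots were dropped and spots of a probe averaged. The log2 processed signal was scaled by the 75th percentile over noncontrol probes. Probes well above background on at least 3 arrays were tested one by one with limma 3.58.1 in R 4.3.3 (lmFit, eBayes, Benjamini-Hochberg), on 3 arrays per genotype with no covariate; 31 probes past the filter, 4 of them region probes, lacked a value and were left out. The script was checked on simulated data. The number of arrays limits the precision. Nothing says how the mice relate beyond genotype, sex, age and tag, so p-values measure the spread between these 6 samples.

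Region probes named are the 10 of highest mean level, the 12 of smallest p in each direction, those of the authors' deposited table, and the 5 regions with most members and 5 with members on both strands. Others named in the text, such as those of wild-type replicate 3 and the regions of extreme median, were chosen after their values were seen. Members and lists were chosen with earlier results of these data known. Alternatives changed the scaling, background correction (normexp with offset 50 on the median signal in place of the mean), filter, variance model, array column and mice. Region coordinates are those of the files (mm9). RefSeq accessions named 26413 probes.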

Additional observations from a re-analysis of the deposited data

How the results depend on the processing

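No setting called a region probe in either direction at a limma adjusted p under 0.05. None of the 24 probes of smallest p reversed its direction under the alternatives in which it was tested. The smallest limma adjusted p there was 0.171. Those 24 were picked by their p in these same data. Leaving mice out cannot reverse the sign of a probe without overlap, so the lack of reversals is no separate support. The members' median difference of -0.13 moved to 0.20 with no filter on dim probes, where the floor of each array enters. The count of members without overlap, 105, was 378 with no filter, 33 among probes above background on all 6 arrays, 55 with 1 probe per identifier and 646 without both P6-tagged mice, or 2.34%, 1.76%, 2.66% and 18.1% of members beside 2.53%, 2.47%, 2.91% and 19.3% of all probes. It ran from 234 to 608 when a mouse was left out (6.57% and 17.1%, beside 7.55% and 13.8%), and the smaller groups overlap less readily by construction. The share of members lower in knockout, 60.3%, was 52.6% with the percentile taken over detected probes, 49.5% without knockout replicate 3 and 69.4% without knockout replicate 1. With the array column as a block, 153 members (4.29%, beside 3.15% of all probes) had an unadjusted p under 0.05, against 58 without it, and the smallest adjusted p was 0.999. Low signal limits most members: 1693 of the 3564 tested missed the well-above-background call on at least 1 array. The labels give no replicate numbers that pair mice across genotypes, so only the array column served as a block.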
